A study of Mus musculus with 15 samples.

Results

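The genes described here are 50 members of the cell cycle machinery, listed by name in 3 classes: 14 cyclins, cyclin-dependent kinases (CDKs) and CDK inhibitors, 16 genes of DNA replication, and 20 genes of mitosis. A gene was represented by the probe set that the annotation ties to it alone and that had the highest mean log2 value over all 15 arrays. By that rule 49 of the 50 were found among 18193 genes, and all 49 passed the filter on dim probe sets that left 12391 genes for testing. Ccnb1 was not analysed here. The 50 names came from a list by function, while the probe set of each depended on its level.

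RNA was measured on Affymetrix mouse arrays in 5 groups of 3 biological replicates, as embryonic stem (ES) cells were turned into paraxial mesoderm, the tissue beside the neural tube that forms the somites. ES cells of line E14 (strain 129P2) were taken unsorted at day 0 from medium with serum, LIF and the 2i inhibitors CHIRON99021, against GSK3, and PD0325901, against MEK, and were maintained on inactivated fibroblast feeders. All differentiated cells spent 2 days with 10 ng/ml BMP4 and were then given 0.5% DMSO and 0.1 µM of LDN, a BMP receptor inhibitor, together with Rspo3, which enhances Wnt signalling, at 10 ng/ml (RDL medium) or with CHIRON99021 at 1 µM (CDL medium). Day 4 cells were E14 cells sorted as positive for the Msgn1-repV reporter. Day 6 cells came from another line, CK35 (strain 129Sv), and were sorted as positive for Pax3-GFP. Line, strain and reporter therefore cannot be told apart from time in any comparison that sets day 6 against day 4 or day 0, and ES cells also differed from all sorted cells in medium and in not being sorted.

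Cells commit to division late in the first gap phase, G1, when D-type cyclins with Cdk4 or Cdk6, and then E-type cyclins with Cdk2, phosphorylate the retinoblastoma proteins and free E2F factors to switch on replication genes. Licensing factors load the Mcm helicase onto origins, and the helicase is activated in S phase. Later a second wave of genes, driven by the B-Myb and FoxM1 complexes, supplies the spindle, kinetochore and cytokinesis machinery. Mouse ES cells are known for a short G1 phase, and cells of the presomitic mesoderm and somites also divide actively in the embryo. Arrays of pooled cells cannot tell fewer cells in a phase from less RNA per cell in that phase.

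The median signal of an array was 29.4 to 31.2, and the precision is limited by the 3 arrays of each group. The ES and presomitic markers followed the labels: 10 ES genes summed to 27500 to 27830 in ES cells, and 7 presomitic genes to 7394 to 9424 in CDL and 7506 to 8023 in RDL at day 4. The 8 anterior presomitic and somite genes summed to 5274 to 5511 in RDL and 2400 to 3443 in CDL at day 4. At day 6 they summed to 3599 to 5949 in RDL and 6015 to 8922 in CDL, so the days overlapped in RDL. Pax3, the sort reporter's gene, was at 252, 366 and 292 in RDL and 515, 618 and 434 in CDL at day 6. CDL day 4 replicate 1 stood apart: its signal for 30 ES-bright genes was 17.2% of the ES level (median), and the ES markers there summed to 8207. RDL day 6 replicate 1 correlated least with its mates (mean r of 0.978), and its actin signal was the most uneven between the 3' and 5' ends (ratio 1.90, and 1.43 to 1.85 elsewhere). The 10 feeder (fibroblast) markers summed to 2716 to 3149 in ES cells, with 4 of them above the array median on all ES arrays, and to 6206 or more on each sorted array. Of the 10, Col1a1, Col3a1 and Thy1 lay near the array medians in ES cells, between 24.2 and 32.7, with Col1a1 just above the median on each. Most of the ES sum therefore came from the other genes of the list. Whether feeder cells were among the ES cells was not tested.

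Measured against ES cells, cell cycle genes were lower more often than higher in all 4 sorted groups, and by modest amounts. In RDL day 4 cells 23 of the 49 members were lower and 6 higher (adjusted p under 0.05 in limma's fit), where 29.4% of all genes tested were lower and 27.6% higher. In CDL day 4 cells 27 were lower and 7 higher, beside 29.4% and 26.6% of all genes. At day 6 the counts were 20 lower and 7 higher in RDL (33.2% and 28.3% of all genes) and 32 lower and 6 higher in CDL (33.2% and 27.8%). The median difference of the members was -0.28, -0.32, -0.15 and -0.44 in these groups, and that of all genes lay between -0.03 and -0.01. Differences here and below are of log2(signal + 12.6), a scale that compresses the change of dim genes, and are given with the standard error of the fit, with 3 arrays a group. The 4 comparisons share the ES arrays, so they are not independent of each other. The actin ratio of 3' to 5' signal also moved with the groups: it was 1.77 to 1.85 on ES arrays, 1.43 to 1.60 at day 4 and 1.55 to 1.90 at day 6, and its part in these differences was not tested.

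**Figure D1:**
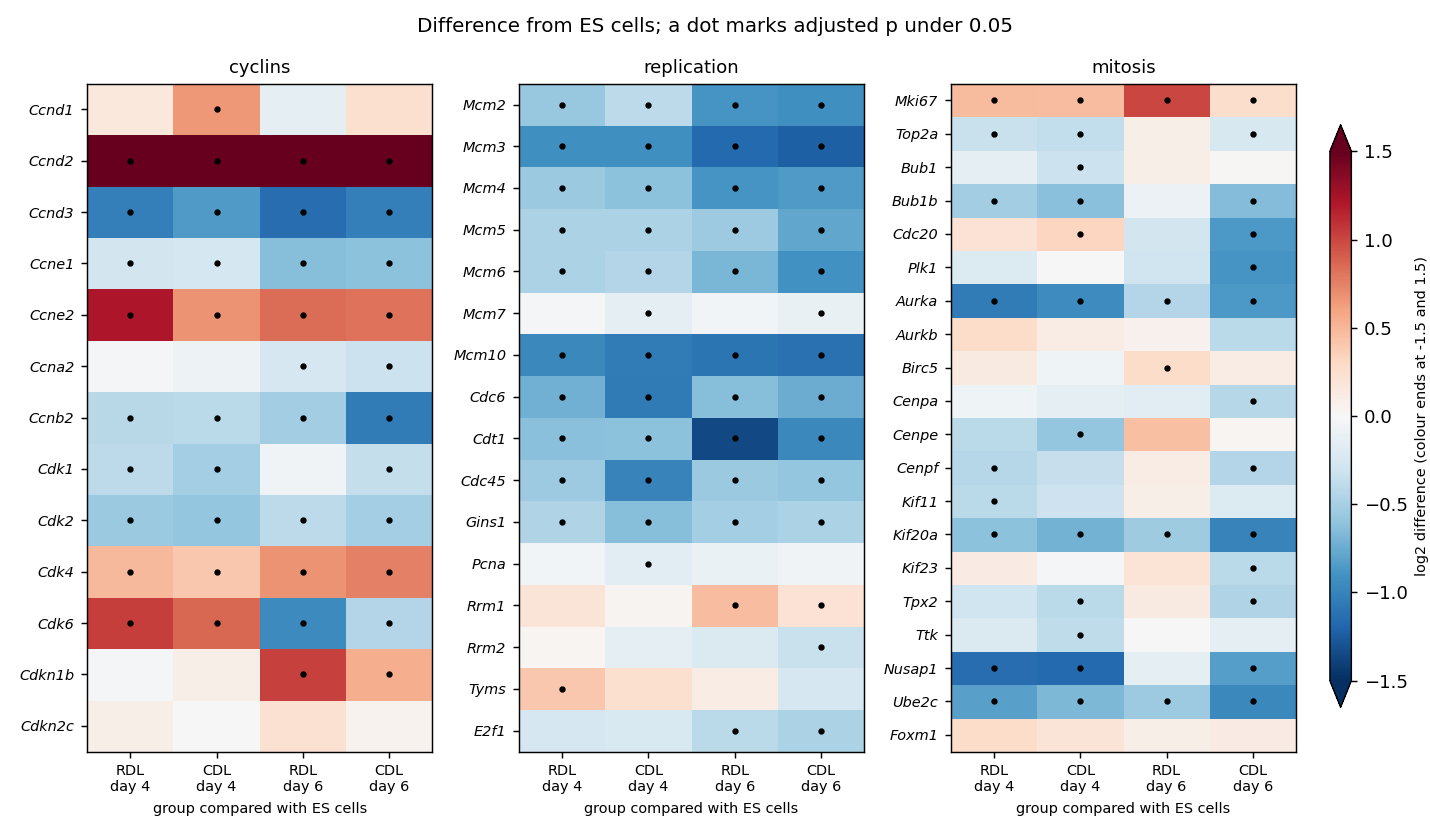
Difference of each member from ES cells (log2, colour) in the 4 sorted groups, by class; a dot marks an adjusted p under 0.05, and the colour scale ends at -1.5 and 1.5. The replication panel is mostly blue in all 4 columns, the mitosis panel is paler for RDL day 6 (3 of 20 lower) than for CDL day 6 (12 of 20 lower), and Ccnd2 lies beyond the scale at 5.50 to 5.64.

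The D-type cyclins, which carry growth factor signals to the cell cycle, went different ways. Ccnd2 was near the array median in ES cells, with a signal of 19.5, 24.7 and 29.8 on the 3 arrays. It stood at 1681, 1734 and 1600 in RDL day 4 and at 1635, 1886 and 1986 in CDL day 4. At day 6 it was 1143, 2016 and 1994 in RDL and 1530, 1942 and 1622 in CDL. Every sorted array lay far above every ES array, and among the sorted groups the arrays overlapped. Relative to ES cells the difference was 5.51 ± 0.18 for RDL day 4 and 5.64 ± 0.18 for CDL day 4, and 5.50 ± 0.18 and 5.52 ± 0.18 at day 6, with an adjusted p of at most 7.89e-13 in each. This is the widest change of any member, and 6 further probe sets of Ccnd2 were also called higher at day 4 in RDL, by 1.47 for the dimmest of them to 5.36 for the brightest. Ccnd2 passed the filter on dim probe sets through its sorted arrays, where it was high, and the choice of its probe set also rested on them.

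Ccnd3 moved in the opposite direction. Its signal was 1003, 948 and 1055 in ES cells, 459, 489 and 501 in RDL day 4, 688, 524 and 465 in CDL day 4, 426, 473 and 447 in RDL day 6 and 467, 548 and 451 in CDL day 6. All ES arrays lay above all sorted arrays, and the highest sorted value was that of CDL day 4 replicate 1, the array that held ES signal. The differences from ES cells were -1.03 ± 0.12, -0.85 ± 0.12, -1.14 ± 0.12 and -1.02 ± 0.12 in that order, with an adjusted p of at most 2.57e-05. A dimmer probe set of Ccnd3 (mean signal 81.1) gave no call, with -0.21, -0.16, -0.05 and 0.07.

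Ccnd1 was the only member called between the media at day 4. Its signal was 540.1, 583 and 649 in ES cells, 677, 647 and 656 in RDL and 937, 1069 and 809 in CDL at day 4, and 473, 570.5 and 546 in RDL and 688, 817 and 606 in CDL at day 6. The CDL arrays lay above the RDL arrays at both days without overlap. CDL day 4 cells exceeded ES cells by 0.65 ± 0.12 (adjusted p = 3.31e-04), whereas the other groups missed the threshold against ES cells at 0.16 ± 0.12, -0.15 ± 0.12 and 0.24 ± 0.12. The probe sets of Ccnd1 did not all behave alike against ES cells: in CDL day 4 the other 2 gave 0.42 (called) and 0.06 (not called), and in RDL day 6 they gave -0.47 and -1.01, both called lower. The dimmer of these (mean signal 352) was called lower in RDL day 4 (-0.46) and CDL day 6 (-0.52) too. The brighter (615) gave no call there (-0.12 in each), so the direction of Ccnd1 in these groups is not settled.

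**Figure D2:**
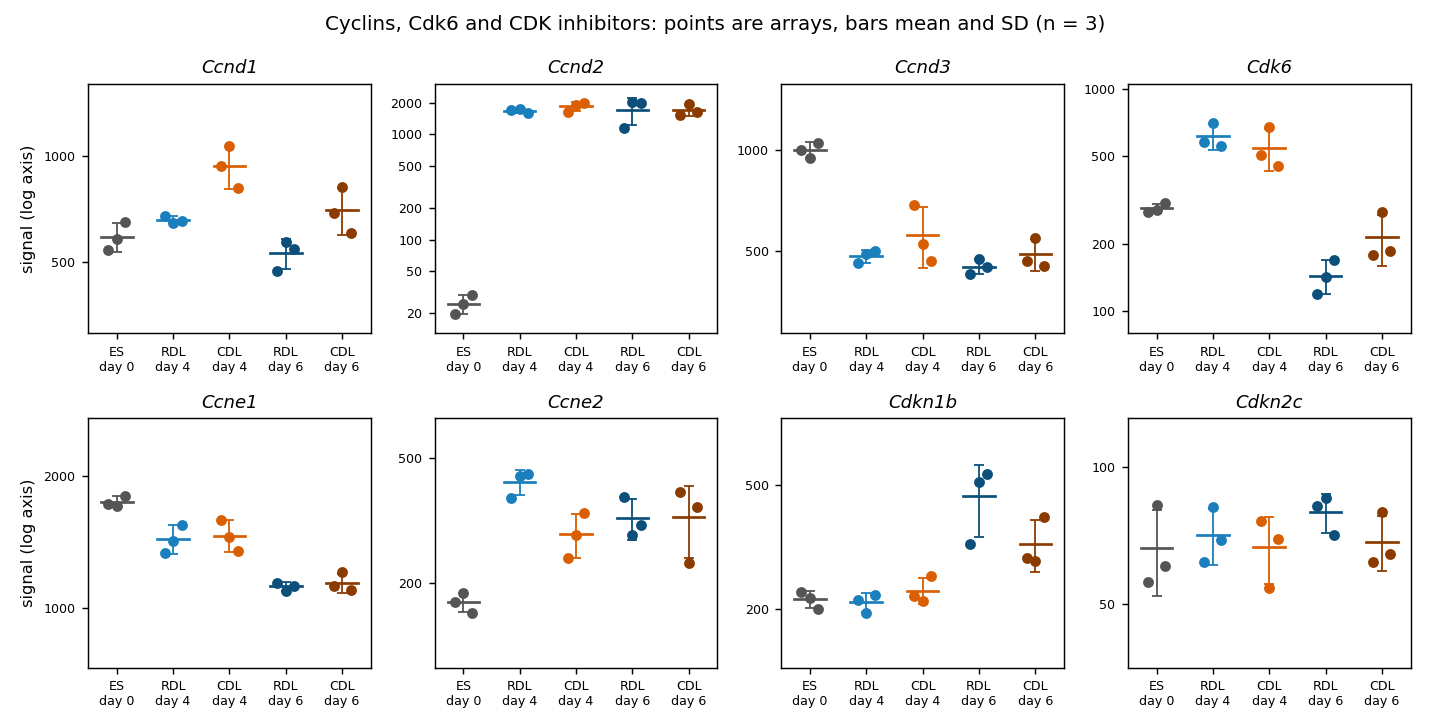
Signal (log axis) of 8 regulators in the 5 groups; points are arrays, bars the mean and SD (n = 3). Ccnd2 rises from 19.5 to 29.8 in ES cells to 1143 or more on all sorted arrays, Ccnd3 falls, Cdk6 is highest at day 4 and lowest at day 6, and Cdkn1b is highest at day 6.

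The CDKs that pair with D-type cyclins also differed from each other. Cdk6 was at 279.6, 285 and 306 in ES cells, 578, 705 and 552 in RDL and 506, 676 and 451 in CDL at day 4, but 119.8, 143 and 170 in RDL and 179.6, 279.6 and 186 in CDL at day 6. Day 4 arrays were above all others, and RDL day 6 arrays were below all ES arrays. The difference from ES cells was 1.04 ± 0.18 and 0.86 ± 0.18 at day 4 and -0.96 ± 0.18 and -0.44 ± 0.18 at day 6. From day 4 to day 6 it came to -2.00 ± 0.18 in RDL (adjusted p = 3.14e-07) and -1.30 ± 0.18 in CDL (adjusted p = 2.92e-05). The CDL day 6 call against ES cells (adjusted p = 0.0427) rested on overlapping arrays and was lost without any 1 of the ES arrays or CDL day 6 replicate 1 or 3. Cdk4 was higher in every sorted group, by 0.49 ± 0.08, 0.40 ± 0.08, 0.67 ± 0.08 and 0.75 ± 0.08, and rose further from day 4 to day 6 in CDL (0.36 ± 0.08). In RDL that step was 0.18 on the chosen probe set, which was not called, while the other Cdk4 probe sets were called higher (0.24 and 0.25).

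Among the E-type cyclins, which activate Cdk2 at the entry to S phase, Ccne1 and Ccne2 changed in opposite directions. Ccne1 had a signal of 1725, 1708 and 1802 in ES cells, 1333, 1419 and 1547 and 1586, 1451 and 1343 in day 4 RDL and CDL cells, and 1140, 1093 and 1119 and 1120, 1203 and 1094 at day 6. Its arrays stepped down without overlap from ES cells to day 4 and from day 4 to day 6, by -0.28 ± 0.08 and -0.26 ± 0.08 and then by -0.35 ± 0.08 and -0.35 ± 0.08, RDL before CDL. The call of CDL day 4 against ES cells (adjusted p = 0.0130) was lost without ES replicate 3 or CDL day 4 replicate 3 (adjusted p up to 0.074). Ccne2 was at 174, 186 and 161 in ES cells, 374, 438 and 446 and 241, 285 and 333 in day 4 RDL and CDL cells, and 375, 285 and 306 and 391, 231 and 349.6 at day 6. All sorted arrays exceeded all ES arrays, by 1.21 ± 0.17, 0.67 ± 0.17, 0.84 ± 0.17 and 0.82 ± 0.17 (adjusted p at most 0.00308), and the sorted groups overlapped except for RDL and CDL at day 4. Cdk2, the partner of both, was lower in each sorted group, between -0.58 and -0.39.

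Cyclin A2 and cyclin B2, with Cdk1 and Cdk2, drive S phase, G2 and mitosis. Ccnb2 was lower than in ES cells in all 4 groups, from -0.41 ± 0.10 in CDL day 4 to -1.05 ± 0.10 in CDL day 6. Cdk1 was lower in RDL day 4 (-0.39 ± 0.09), CDL day 4 (-0.51 ± 0.09) and CDL day 6 (-0.36 ± 0.09), and in RDL day 6 it stood at -0.05 ± 0.09 (adjusted p = 0.688). On the chosen probe set Ccna2 was lower at day 6 alone, by -0.25 in RDL and -0.32 in CDL. A second Ccna2 probe set (mean signal 962) was called higher in RDL day 6 (0.30), so the direction of Ccna2 is not settled there, and the RDL call was also lost without ES replicate 2 or 3 or RDL day 6 replicate 2 or 3.

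Of the CDK inhibitors, Cdkn1b (p27) was at 226, 217 and 201 in ES cells and at 214, 195 and 222 and 221, 212 and 254 in day 4 RDL and CDL cells. At day 6 it reached 324, 509 and 542 in RDL and 292, 284 and 394 in CDL. The day 6 arrays lay above all arrays of day 0 and day 4, by 1.02 ± 0.17 in RDL (adjusted p = 6.23e-05) and 0.55 ± 0.17 in CDL (adjusted p = 0.00950) against ES cells. The CDL call was lost without CDL day 6 replicate 3 (adjusted p = 0.0604). Cdkn2c (p18), an inhibitor of Cdk4 and Cdk6, ranged from 54.1 to 85.4 over all arrays and was called in none of the comparisons.

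Replication genes were lower in all 4 sorted groups. Relative to ES cells, 10 of 16 were lower and 1 higher in RDL day 4, 12 lower and 0 higher in CDL day 4 (1 higher at an unadjusted p under 0.05), 11 lower and 1 higher in RDL day 6, and 13 lower and 1 higher in CDL day 6. These are 62.5%, 75%, 68.8% and 81.2% lower, beside the same shares of all genes as above. At the unadjusted threshold 3528 of all 12391 genes were higher in CDL day 4. Class medians were -0.47, -0.46, -0.56 and -0.66. On single arrays the class median lay between -0.35 and -0.66 on all 12 sorted arrays and between -0.01 and 0.01 on the ES arrays. Its highest sorted value, -0.35, was that of CDL day 4 replicate 1, and without that array CDL day 4 still had 12 lower and a median of -0.51.

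**Figure D3:**
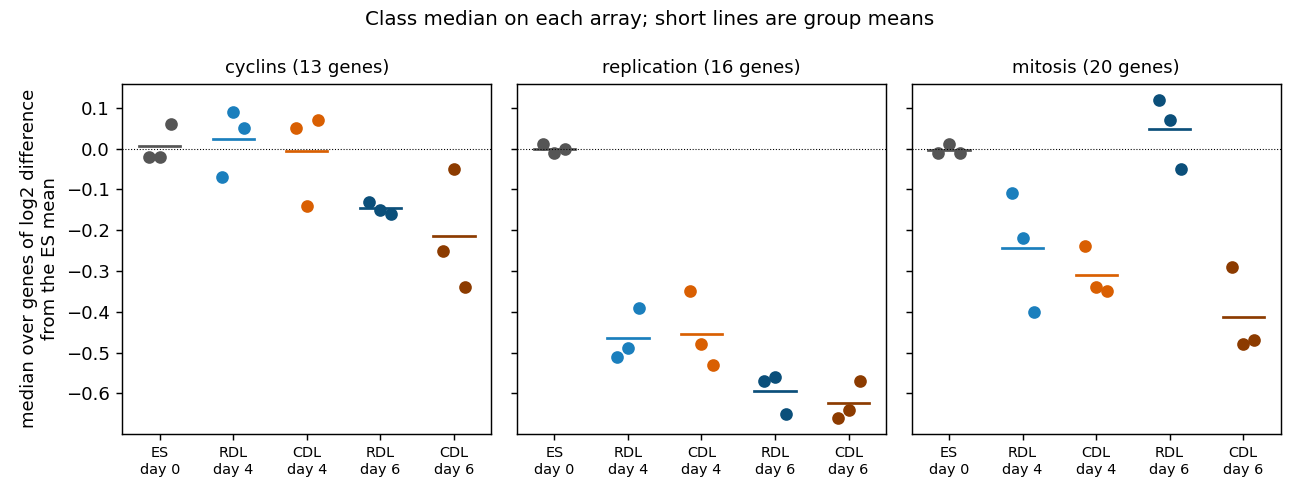
Median over each class of the log2 difference from the ES mean, for every array (points; short lines are means of the 3 arrays). Replication arrays of all sorted groups lie between -0.35 and -0.66; mitosis arrays of RDL day 6 lie between -0.05 and 0.12, above those of CDL day 6 at -0.48 to -0.29.

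The helicase genes Mcm2 to Mcm6 were lower in all sorted groups, and Mcm7 was lower in part of them. Mcm3 had a signal of 2945, 2907 and 2931 in ES cells, 1384, 1565 and 1698 and 1654, 1475 and 1495 in day 4 RDL and CDL cells, and 1282, 1335 and 1266 and 1190, 1312 and 1238 at day 6. On this probe set ES arrays were highest and day 6 arrays lowest, with no overlap between these steps, and the differences from ES cells were -0.92 ± 0.08, -0.92 ± 0.08, -1.17 ± 0.08 and -1.22 ± 0.08 (adjusted p at most 9.84e-08). The other Mcm3 probe sets were also called lower than ES cells in all 4 groups. From day 4 to day 6 none of them was called, with -0.33 to -0.06 in RDL and -0.32 to -0.08 in CDL. For Mcm2, Mcm4, Mcm5 and Mcm6 the differences from ES cells ran from -0.39 (Mcm2 in CDL day 4) to -0.92 (Mcm2 in CDL day 6). Mcm7 lay between -0.14 and -0.03, and was called lower in both CDL groups. The CDL day 6 call was lost without any 1 of the ES arrays or CDL day 6 replicate 1 (adjusted p up to 0.159). Another Mcm7 probe set (mean signal 2210) was called lower at day 4 in both media (-0.25 and -0.33) and not at day 6. Another Mcm5 probe set with a mean signal of 1190 gave the same calls, and a dim one (78.3) was called higher in RDL, by 0.33 at day 4 and 0.38 at day 6.

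Origin licensing requires Cdc6 and Cdt1, and the start of replication requires Mcm10, Cdc45 and the GINS complex. Cdt1 was at 4203, 4073 and 4253 in ES cells, 2537, 2947 and 2637 and 2732, 2972 and 2443 in day 4 RDL and CDL cells, and 1072, 2046 and 1975 and 1837, 2926 and 1776 at day 6. All sorted arrays were below all ES arrays and the spread was wide at day 6, where RDL day 6 replicate 1 was the lowest; the differences were -0.63 ± 0.21, -0.62 ± 0.21, -1.35 ± 0.21 and -0.97 ± 0.21. Cdc6 was at 844, 833 and 803 in ES cells, 516, 488 and 491 and 445, 376 and 355 in day 4 RDL and CDL cells, and 692, 483 and 432 and 609, 366 and 532 at day 6. Again no sorted array reached an ES array, and the differences were -0.72 ± 0.17, -1.06 ± 0.17, -0.64 ± 0.17 and -0.74 ± 0.17.

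Mcm10 was at 1436, 1467 and 1409 in ES cells, 829, 682 and 679.7 and 777, 644 and 647 in day 4 RDL and CDL cells, and 807, 621 and 599.8 and 707, 583 and 682 at day 6. The sorted groups overlapped each other and lay below ES cells by -0.97 ± 0.12, -1.05 ± 0.12, -1.09 ± 0.12 and -1.12 ± 0.12. Cdc45 fell by 0.55 or more and Gins1 fell by 0.45 or more in all 4 groups. Cdc45 was the only replication member called higher from day 4 to day 6 in CDL, at 0.42 ± 0.16 with overlapping arrays (adjusted p = 0.0456). That call was lost without CDL day 4 replicate 2 or 3 or CDL day 6 replicate 1 or 3 (adjusted p up to 0.163).

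Pcna, the sliding clamp of the replication fork, had group means between 9279 and 10360, and its largest difference from ES cells was -0.16 ± 0.05 in CDL day 4, a call lost without ES replicate 1 or 3 or CDL day 4 replicate 2. Ribonucleotide reductase, made of Rrm1 and Rrm2, supplies the DNA precursors. Rrm1 was higher at day 6 (0.46 ± 0.09 in RDL and 0.22 ± 0.09 in CDL, adjusted p = 2.95e-04 and 0.0469), with arrays at 2857, 2251 and 2181 and 2024, 1930 and 2142 against 1767, 1786 and 1685 in ES cells. The highest of these was RDL day 6 replicate 1, and the rise from RDL day 4 (0.28 ± 0.09) was lost without it and without RDL day 4 replicate 1 or 2. The CDL day 6 call was lost without any 1 of the ES arrays or CDL day 6 replicate 1 or 3 (adjusted p up to 0.149). On its chosen probe set Rrm2 was called in CDL day 6 (-0.33 ± 0.11), which was lost without CDL day 6 replicate 3. Another Rrm2 probe set (mean signal 675) was called lower in CDL day 4 (-0.51), RDL day 6 (-0.57) and CDL day 6 (-0.54), and 1 more (1520) in CDL day 4 (-0.25) and CDL day 6 (-0.27).

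Tyms, thymidylate synthase, was dim, between 13.0 and 39.1 and so near the array medians. It was called higher in RDL day 4 (0.40 ± 0.11), with arrays at 35.9, 38.4 and 39.1 against 23.3, 25.4 and 28.4 in ES cells. It lay below the array median on all ES and CDL day 6 arrays and passed the filter mainly on its day 4 arrays. Its place among the genes tested therefore rests on the groups where it was higher. E2f1, a transcription factor that activates many of these genes, was at 151, 136 and 153 in ES cells, 109, 137 and 117 and 147, 110.4 and 115 in day 4 RDL and CDL cells, and 93.1, 116 and 114 and 75.7, 129.7 and 109 at day 6. On this probe set it was called lower at day 6, by -0.41 ± 0.16 in RDL (adjusted p = 0.0351) and -0.47 ± 0.16 in CDL (adjusted p = 0.0179), while at day 4 the groups overlapped ES cells. Both calls were lost without ES replicate 1 or 3 or without replicate 1 of the day 6 group (adjusted p up to 0.119), a dimmer probe set (65.2) was also called lower in RDL day 4 (-0.43), and another (31.1) gave no call at day 6.

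Promoter sequence is shown for members picked by hand, to set the letters of the replication class beside those of the mitosis class. RefSeq windows of 300 bases (250 before to 50 after a transcription start, build GRCm38.p6) matched 39 of the 49 members. An E2F-like string (the letters TTTCCCG, or the variants with TTTGGCG, with TTTCGCG or with TTTGCCG, on either strand) lay in a window of 7 of 14 replication genes (50%), 2 of 16 mitosis genes (12.5%), 3 of 9 cyclin class genes (33.3%) and 7.65% of all 27025 genes of the table. The 160 bases before the start of 3 replication genes follow, 5′ to 3′ on the gene's strand, with E2F-like strings and CCAAT boxes (CCAAT, or ATTGG on the other strand) in capitals. Strings on opposite strands overlap in Mcm5 and Mcm6. Mcm5 lies at chr8:75109349-75109508 (plus strand), Mcm6 at chr1:128359706-128359865 (minus strand) and Cdc6 at chr11:98907991-98908150 (plus strand).
Mcm5: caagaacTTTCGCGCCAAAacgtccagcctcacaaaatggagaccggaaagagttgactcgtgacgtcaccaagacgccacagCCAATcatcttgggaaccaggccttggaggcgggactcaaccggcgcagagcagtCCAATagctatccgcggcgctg
Mcm6: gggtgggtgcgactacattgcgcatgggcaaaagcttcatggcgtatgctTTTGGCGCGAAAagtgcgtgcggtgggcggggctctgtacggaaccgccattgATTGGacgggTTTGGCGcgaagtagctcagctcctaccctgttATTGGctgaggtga
Cdc6: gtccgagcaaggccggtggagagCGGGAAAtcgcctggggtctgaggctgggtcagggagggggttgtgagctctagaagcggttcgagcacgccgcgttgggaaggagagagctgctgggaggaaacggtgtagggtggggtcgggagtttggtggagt

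In the mitosis class fewer genes were lower in RDL day 6 than in the other sorted groups. Against ES cells 8 of 20 were lower and 1 higher in RDL day 4, 10 lower and 2 higher in CDL day 4, 3 lower and 2 higher in RDL day 6, and 12 lower and 1 higher in CDL day 6. These are 40.0%, 50%, 15.0% and 60.0% lower, beside 29.4%, 29.4%, 33.2% and 33.2% of all genes. The class medians were -0.26, -0.33, 0.08 and -0.42. On single arrays the mitosis median was -0.11, -0.22 and -0.40 in RDL day 4, -0.24, -0.34 and -0.35 in CDL day 4, 0.12, 0.07 and -0.05 in RDL day 6, and -0.29, -0.48 and -0.47 in CDL day 6. The RDL day 6 arrays stood above all other sorted arrays and overlapped the ES arrays, which lay between -0.01 and 0.01. Without RDL day 6 replicate 1 that group had 2 lower, 2 higher and a median of -0.02. RDL day 4 had 6 lower without ES replicate 1 or 2 or without RDL day 4 replicate 2 or 3. The calls of Cenpf (-0.43) and Kif11 (-0.40) were lost each time, and that of Kif11 also without ES replicate 3.

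Several spindle genes were lowest at day 4. Nusap1, which bundles spindle microtubules, was at 1457, 1462 and 1292 in ES cells, 703, 665 and 528 and 743, 574 and 544 in day 4 RDL and CDL cells, 1549, 1187 and 1130 in RDL day 6 and 959.8, 693 and 728 in CDL day 6. Only RDL day 6 overlapped ES cells. The differences from ES cells were -1.14 ± 0.16 and -1.17 ± 0.16 at day 4 (adjusted p at most 1.13e-05), -0.13 ± 0.16 in RDL day 6 (adjusted p = 0.484) and -0.83 ± 0.16 in CDL day 6. Aurka, a kinase of the spindle poles, was at 896, 866 and 827 in ES cells, 479, 402 and 357 and 517, 398 and 421 in day 4 RDL and CDL cells, 761, 588 and 564 in RDL day 6 and 485, 423 and 501 in CDL day 6. No sorted array reached the ES arrays, and the differences were -1.05 ± 0.14, -0.94 ± 0.14, -0.44 ± 0.14 and -0.86 ± 0.14. The RDL day 6 call was lost without RDL day 6 replicate 3.

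Cenpe, a kinesin of the kinetochore, varied more between replicates. It was at 516, 531 and 503 in ES cells, 514, 335 and 334 and 408, 296 and 329.6 in day 4 RDL and CDL cells, and 1017, 628 and 555 and 648, 433 and 522 at day 6. Replicate 1 was highest in each sorted group, and RDL day 6 replicate 1 stood highest of all. It was called against ES cells in CDL day 4 (-0.58 ± 0.21, adjusted p = 0.0299), and rose from day 4 to day 6 in RDL (0.85 ± 0.21) and in CDL (0.61 ± 0.21). The call in CDL day 4 was lost without any 1 of the ES arrays or CDL day 4 replicate 2 or 3 (adjusted p up to 0.127), and the rise in CDL without CDL day 4 replicate 2 or 3 or CDL day 6 replicate 1 or 3 (up to 0.149). A second Cenpe probe set (mean signal 369) gave neither of these calls and was higher than ES cells in RDL day 6 (0.55).

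Cdc20, which activates the anaphase-promoting complex, had another course. Its signal was 3253, 3237 and 3363 in ES cells, 3769, 3894 and 3789 and 4034, 4240 and 4024 in day 4 RDL and CDL cells, 2067, 3118 and 3135 in RDL day 6 and 1713, 2045 and 1663 in CDL day 6. Day 4 arrays were the highest and CDL day 6 arrays the lowest, without overlap with other groups. CDL day 4 exceeded ES cells by 0.32 ± 0.12 (adjusted p = 0.0374), and CDL day 6 differed from them by -0.86 ± 0.12 (adjusted p = 1.47e-05). The CDL day 4 call was lost whichever 1 of the 6 ES and CDL day 4 arrays was left out (adjusted p up to 0.123), and the other probe sets of Cdc20 did not give it (0.28 and 0.07). Both of these were called lower in RDL day 6 (-0.36 and -0.61). The remaining genes lower in at least 3 of the 4 groups were Kif20a, a cytokinesis kinesin (-0.53 or lower), Ube2c, the ubiquitin conjugating partner of the same complex (between -0.97 and -0.55), the checkpoint gene Bub1b and the topoisomerase Top2a. Ttk and Bub1, kinases of the spindle checkpoint, were called lower than ES cells in CDL day 4 (-0.38 ± 0.11 and -0.32 ± 0.10), and Plk1 and Cenpa in CDL day 6 (-0.88 ± 0.22 and -0.43 ± 0.09). The Bub1 call was lost without ES replicate 2, and a dim Bub1 probe set (59.7) was called higher in RDL day 4 (0.51), RDL day 6 (0.74) and CDL day 6 (0.48). A dim Ttk probe set (77.5) was called lower in RDL day 4 too (-0.45). The Ube2c call in RDL day 6 was lost without RDL day 6 replicate 1.

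Mki67, which coats mitotic chromosomes and serves as a marker of proliferating cells, was the only mitosis member higher in all 4 groups. It was at 1403, 1399 and 1353 in ES cells, 2035, 1911 and 1815 and 1883, 2102 and 1767 in day 4 RDL and CDL cells, 2718, 2895 and 2722 in RDL day 6 and 1561, 1978 and 1477 in CDL day 6. No sorted array fell to the ES level, and the RDL day 6 arrays lay above all others. The differences were 0.47 ± 0.10, 0.46 ± 0.10, 1.00 ± 0.10 and 0.26 ± 0.10 (adjusted p at most 0.0330). The CDL day 6 call was lost without any 1 of the ES arrays or CDL day 6 replicate 2 (adjusted p up to 0.175), and the other 3 were kept whichever array was left out. Birc5 (survivin), a partner of Aurkb in the chromosomal passenger complex, was higher in RDL day 6 (0.27 ± 0.09), a call lost without ES replicate 2 or RDL day 6 replicate 1. Aurkb itself and Foxm1, a transcription factor of mitotic genes, were called in none of the comparisons on their chosen probe sets: Aurkb ranged from 143 to 313 and Foxm1 from 85.5 to 147. Another Aurkb probe set was called lower in CDL day 6 (-0.59), and another Foxm1 probe set higher at day 4 in RDL (0.48) and CDL (0.44).

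Day 6 was then set against day 4 within each medium. In RDL 12 members were higher and 7 lower, where 13.8% of all genes were higher and 17.1% lower. The mitosis class supplied 9 of the 12, which is 45.0% of its 20 genes: Nusap1 (1.01 ± 0.16), Cenpe, Aurka (0.61 ± 0.14), Cenpf (0.54 ± 0.15), Mki67 (0.53 ± 0.10), Kif11 (0.49 ± 0.15), Tpx2 (0.44 ± 0.13), Bub1b (0.43 ± 0.09) and Top2a (0.41 ± 0.07). Cdc20 was the 1 mitosis gene called lower (-0.48 ± 0.12, adjusted p = 0.00677). Without RDL day 6 replicate 1, the array with the highest actin ratio, 7 mitosis genes were higher and 1 lower, and the calls of Cenpf, Kif11, Rrm1, Mcm2 and Cdt1 were lost. Leaving out RDL day 4 replicate 2 lost Kif11, Rrm1, Mcm2, Mcm3 and Cdt1, RDL day 4 replicate 3 lost Cenpf, Kif11, Tpx2, Mcm2 and Mcm3, RDL day 4 replicate 1 lost Rrm1, and RDL day 6 replicate 3 lost Mcm3. Cdk1, Cdkn1b and Rrm1 were the other genes that rose, and the lower genes besides Cdc20 were Ccne1, Cdk6, Mcm2, Mcm3, Mcm4 and Cdt1. Of 23 tests on other probe sets of the called genes 9 gave the same call and 14 none. Those without a call included all of Kif11 (0.36 and -0.39), Cenpf (0.26 and -0.01), Top2a (0.25) and Mcm3. With the mean of all probe sets the calls of Cenpf, Kif11, Top2a, Mcm3, Mcm4 and Rrm1 were lost.

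In CDL the same step gave 5 higher and 15 lower members, beside 17.4% and 21.9% of all genes. Among mitosis genes 2 were higher, Cenpe and the checkpoint kinase Bub1 (0.34 ± 0.10, arrays 1444, 1486 and 1498 at day 4 and 2049, 1640 and 1958 at day 6), and 4 were lower: Cdc20 (-1.18 ± 0.12), the mitotic kinase Plk1 (-0.89 ± 0.22), the cytokinesis kinesin Kif23 (-0.38 ± 0.12) and the centromere histone Cenpa (-0.29 ± 0.09). Replication genes were lower in 6 cases, Mcm2 to Mcm6 and Tyms, with the widest change in Mcm2 (-0.53 ± 0.09). Ccnb2 (-0.64 ± 0.10), Ccna2, Ccnd1, Ccne1 and Cdk6 were the other genes called lower, and Cdk4, Cdkn1b and Cdc45 the other genes called higher. Leaving out CDL day 6 replicate 3 reduced the 20 calls to 13, with Ccnd1, Ccna2, Cdkn1b, Mcm4, Cdc45, Cenpa and Cenpe lost. The other arrays of these groups were each needed for 1 to 6 of the calls, such as Kif23 (CDL day 4 replicate 1 and CDL day 6 replicate 2) and Bub1 (CDL day 6 replicate 1). Of 23 tests on other probe sets of the called genes 12 gave the same call and 11 none, among them all those of Mcm3. Time, line, strain and reporter cannot be told apart in either step.

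The media were compared at each day, which asks whether Rspo3 or CHIRON99021 as the Wnt activator changes the outcome. At day 4 just 1 of the 49 members was called, Ccnd1, higher in CDL by 0.49 ± 0.12 (adjusted p = 0.0342), where 2.90% of all genes were higher and 1.52% lower in CDL. Both other probe sets of Ccnd1 were called higher as well (0.52 and 0.54), but the call was lost when any 1 of the RDL day 4 arrays, or CDL day 4 replicate 1 or 2, was left out (adjusted p up to 0.164). No member was called lower by limma, and 5 were lower at an unadjusted p under 0.05, beside 782 of all 12391 genes. For the mitosis genes the median difference was -0.09, and the 95% confidence interval of Mki67, for example, was -0.21 to 0.21.

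At day 6 the media differed in the mitosis class. Of the 49 members 10 were lower in CDL and 0 higher (2 higher and 21 lower at an unadjusted p under 0.05), where 3.92% of all genes tested were lower and 3.65% higher. Of these 10, 9 were mitosis genes (45.0% of the class), with a class median of -0.44, and 19 of the 20 were below 0; the other was Ccnb2. Arrays of CDL lay below those of RDL without overlap for 10 mitosis genes, beside 10.3% of all genes. None of the 16 replication genes was called in limma's fit (4 lower at an unadjusted p under 0.05), and their median was -0.06. At that unadjusted threshold 1262 of all 12391 genes were lower and 1118 higher.

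The largest of these was Mki67, at 2718, 2895 and 2722 in RDL and 1561, 1978 and 1477 in CDL, a difference of -0.74 ± 0.10 (adjusted p = 1.39e-04). Nusap1 followed with -0.69 ± 0.16 (adjusted p = 0.0112). Kif23 was at 466, 408 and 390 in RDL and 292, 248 and 279 in CDL, and differed by -0.60 ± 0.12 (adjusted p = 0.00363). In all 3 genes the lowest RDL array lay above the highest CDL array.

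Cdc20 differed by -0.59 ± 0.12 (adjusted p = 0.00578), with RDL replicate 1 well below its mates and still just above every CDL array (2067 against 2045 for the highest). Tpx2, which recruits Aurka to the spindle, was at 1157, 1086 and 1030 in RDL and 921, 572 and 704 in CDL, and differed by -0.59 ± 0.13 (adjusted p = 0.00876). Bub1b was at 1049, 1011 and 956 in RDL and 646, 733 and 664 in CDL, without overlap, and differed by -0.55 ± 0.09 (adjusted p = 0.00125). Ccnb2 was at 934, 996 and 923 in RDL and 719.6, 714 and 552 in CDL, which did not overlap either, and differed by -0.52 ± 0.10 (adjusted p = 0.00382). The other genes called were Cenpf (-0.56), Kif20a (-0.47) and Top2a (-0.33). The Cenpf call was lost without RDL day 6 replicate 1 or 2 or CDL day 6 replicate 2 or 3, that of Kif20a without RDL day 6 replicate 1 or 2 or CDL day 6 replicate 2, and that of Nusap1 without CDL day 6 replicate 3. Second probe sets of Bub1b (-0.54) and Tpx2 (-0.51) were called lower too, whereas those of Cenpf, Kif23 and Top2a and dimmer ones of Bub1b and Tpx2, with mean signals of 27.6 to 150, gave no call. Of the 2 further Cdc20 probe sets 1 was called (-0.50) and 1 was not (-0.42, adjusted p = 0.0862).

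**Figure D4:**
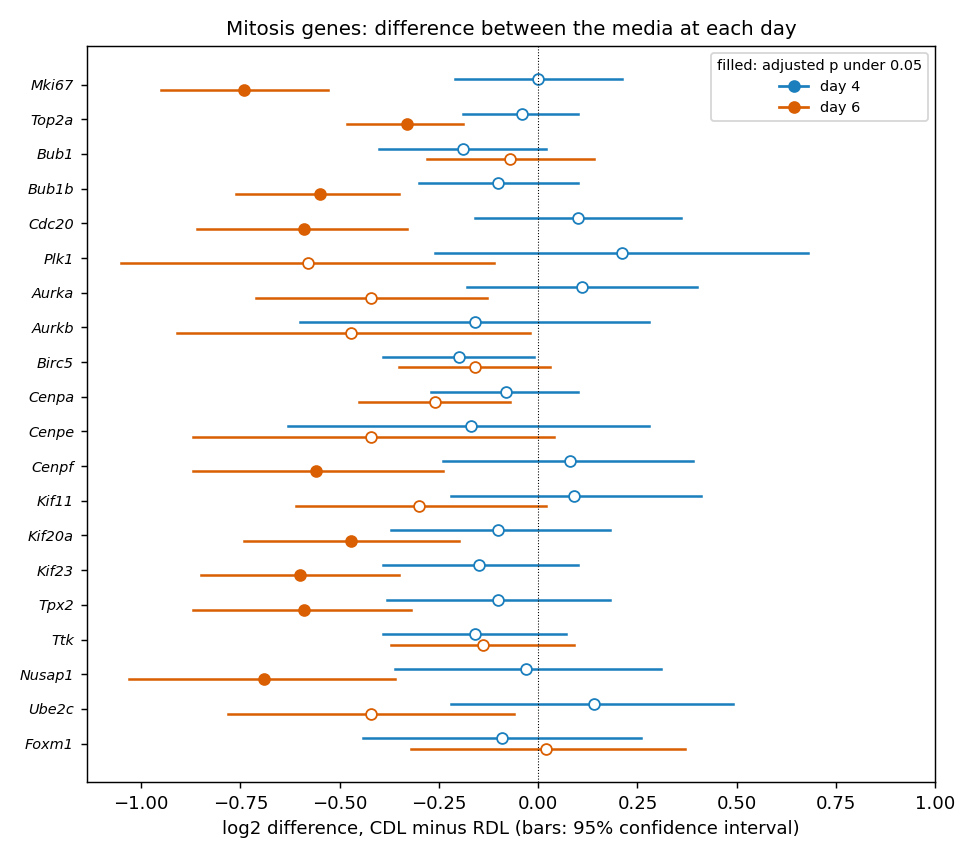
Difference CDL minus RDL (log2) of the 20 mitosis genes at day 4 (blue) and day 6 (orange), with 95% confidence intervals; filled points have an adjusted p under 0.05. At day 6 all genes but Foxm1 lie left of 0 and 9 are filled; at day 4 none is filled.

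How many genes were called at day 6 depended on the fit. With RDL day 6 replicate 1 left out 15 members were called, among them 11 mitosis genes, and 8 of the 10 were kept. With only the 6 day 6 arrays in the fit, which leaves little to estimate the spread from, just Mki67 and Bub1b were called. With the replicate number as a block 14 were called, including all 10. The anterior presomitic and somite markers summed to 3599 to 5949 in RDL and 6015 to 8922 in CDL at day 6, and the presomitic markers to 302 to 380 in RDL and 700 to 928 in CDL (7 measured genes, of which Msgn1 was at 29.0, 31.1 and 25.9 and 44.3, 43.9 and 43.6). Neither list overlapped between the media. The fibroblast markers summed to 9064, 12870 and 13050 in RDL and 7456, 10030 and 7875 in CDL, which overlapped. Within that list Col3a1 (6094, 7013 and 7276 and 3715, 4828 and 4393) and Col1a1 (117, 212 and 210.4 and 112, 107 and 93.9) were higher in RDL without overlap. Thy1 (22.6, 15.3 and 11.8 and 22.5, 21.4 and 20.2) overlapped, with its lowest values in RDL. The actin ratio was 1.90, 1.60 and 1.55 in RDL and 1.66, 1.56 and 1.61 in CDL, which overlapped. The part of these markers in the mitosis result was not tested.

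The test of whether the medium acted differently at the 2 days, the interaction, called 3 members of 49, beside 3.09% of all genes called in that direction and 2.31% in the other. They were Mki67 (-0.73 ± 0.14, adjusted p = 0.00466), Cdc20 (-0.70 ± 0.17, adjusted p = 0.0266) and Ccnb2 (-0.54 ± 0.14, adjusted p = 0.0391). In each the difference between the media was near 0 at day 4 and below 0 at day 6. The mitosis median of the interaction was -0.42, and 11 of the 20 were lower at an unadjusted p under 0.05, beside 1087 of all 12391 genes. With the replicate number as a block 6 were called, the added ones being Aurka, Cenpf and Nusap1. Replicate 1 of RDL day 6 again decided the count: without it 9 were called, 7 lower and 2 higher. Cdc20 and Ccnb2 were both lost when RDL day 4 replicate 2 or 3, CDL day 4 replicate 2, RDL day 6 replicate 2 or 3, RDL day 4 replicate 1 or CDL day 6 replicate 3 was left out. Ccnb2 alone was lost without CDL day 4 replicate 1 and Cdc20 alone without CDL day 6 replicate 1, and Mki67 was kept each time. The 2 other Cdc20 probe sets were not called in the interaction (-0.54 and -0.56, adjusted p = 0.166 and 0.0820 in limma's fit).

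The promoters of the members were also searched for a string known from mitosis genes. The cell cycle genes homology region, CHR (TTTGAA or TTTAAA on either strand), lay in a window of 14 of 16 mitosis genes (87.5%), 4 of 14 replication genes (28.6%), 4 of 9 cyclin class genes (44.4%) and 30.6% of all genes. CCAAT lay in 14 of 16 mitosis genes (87.5%), 10 of 14 replication genes (71.4%), 6 of 9 cyclin class genes (66.7%) and 41.1% of all genes. Of the 10 members lower in CDL at day 6, 8 had a window and 7 of these held a CHR string; Nusap1 did not. The CHR string also lay in mitosis genes that were not called, such as Kif11. The 160 bases before the start of Cdc20 (chr4:118437344-118437503, minus strand), Mki67 (chr7:135716380-135716539, minus strand), Top2a (chr11:99024190-99024349, minus strand) and Kif11 (chr19:37376222-37376381, plus strand) follow, with CHR and CCAAT strings in capitals. A match in letters is a description and does not show that a factor binds there.
Cdc20: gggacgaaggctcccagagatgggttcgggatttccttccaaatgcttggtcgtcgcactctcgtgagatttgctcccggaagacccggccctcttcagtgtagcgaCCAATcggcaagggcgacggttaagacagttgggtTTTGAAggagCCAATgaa
Mki67: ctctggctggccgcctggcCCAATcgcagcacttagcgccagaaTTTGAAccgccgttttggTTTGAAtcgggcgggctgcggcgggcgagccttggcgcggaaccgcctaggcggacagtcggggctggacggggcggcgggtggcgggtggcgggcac
Top2a: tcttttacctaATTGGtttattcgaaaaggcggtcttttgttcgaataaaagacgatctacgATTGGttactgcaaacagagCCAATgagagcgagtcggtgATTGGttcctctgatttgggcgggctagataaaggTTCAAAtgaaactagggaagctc
Kif11: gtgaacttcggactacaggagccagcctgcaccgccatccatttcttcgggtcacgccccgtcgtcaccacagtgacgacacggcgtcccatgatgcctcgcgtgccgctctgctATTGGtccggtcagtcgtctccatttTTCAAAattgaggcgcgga

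A further 103 cell cycle genes, written from general knowledge and tested in the same fits, were counted beside the members. Of 34 replication genes 23, 28, 21 and 21 were lower than ES cells in RDL day 4, CDL day 4, RDL day 6 and CDL day 6. These are 67.6%, 82.4%, 61.8% and 61.8%, beside 29.4%, 29.4%, 33.2% and 33.2% of all genes, with medians of -0.35, -0.52, -0.35 and -0.36. Orc1, the large subunit of the origin recognition complex, had the widest fall among them, from 602, 613 and 589 in ES cells to 180.4, 143 and 148 in RDL day 6 (-1.86 ± 0.12). Cdc7, the kinase that fires origins, rose from day 4 to day 6 by 0.54 ± 0.11 in RDL and 0.83 ± 0.11 in CDL.

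Of 33 further mitosis genes 18, 18, 10 and 17 were lower in the same order (54.5%, 54.5%, 30.3% and 51.5%, beside 29.4%, 29.4%, 33.2% and 33.2% of all genes). In this list 15 were higher and 1 lower in RDL day 6 than in RDL day 4, a share of 45.5% beside 13.8% of all genes. Aspm (0.65 ± 0.14), a spindle pole gene, and Prc1 (0.56 ± 0.19), which bundles the midzone of the spindle, were among them. Between the media at day 6 all 33 were below 0 with a median of -0.25, but just 1 was called, the kinetochore gene Ndc80 (-0.46 ± 0.13, adjusted p = 0.0363), a share of 3.03% beside 3.92% of all genes.

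The 36 further regulators held the widest changes. The CDK inhibitor Cdkn1c (p57) was at 31.4, 31.4 and 40.5 in ES cells, 408, 510.1 and 531 in RDL and 839, 783 and 835 in CDL at day 4, and 569, 585 and 632 and 527, 779.5 and 515 at day 6. All sorted arrays lay far above ES cells, and CDL exceeded RDL at day 4 without overlap. The differences from ES cells were 3.39 ± 0.15, 4.15 ± 0.15, 3.70 ± 0.15 and 3.70 ± 0.15, and CDL exceeded RDL at day 4 by 0.76 ± 0.15 (adjusted p = 0.00596).

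Cdkn1a (p21), a target of p53, was at 1723, 1671 and 1836 in ES cells, 1039, 1384 and 1254 and 1384, 1579 and 1374 in day 4 RDL and CDL cells, and 407, 348 and 403 and 410, 426 and 439 at day 6. Day 6 arrays were far below all others, by -1.63 ± 0.11 from RDL day 4 and -1.73 ± 0.11 from CDL day 4. Mybl2 (B-Myb), the activator of late cell cycle genes, was at 950.5, 953 and 944 in ES cells and at 102, 106 and 112 in RDL and 290.2, 105 and 98.3 in CDL at day 4, where the high CDL value was again replicate 1, the array with ES signal. It was lower in all 4 groups, by -3.01, -2.60, -3.64 and -3.49.

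Myc and Mycn, transcription factors that promote growth and the passage through G1, differed over the days. Myc was at 69.9, 73.3 and 77.8 in ES cells and exceeded it by 1.80 ± 0.25, 1.66 ± 0.25, 1.55 ± 0.25 and 1.41 ± 0.25 in RDL day 4, CDL day 4, RDL day 6 and CDL day 6. Mycn fell from day 4 to day 6 by -1.30 in RDL and -1.13 in CDL. E2f6 and E2f7, E2F members that repress transcription, were higher in all 4 sorted groups, between 1.45 and 1.85 for E2f6 and between 0.79 and 1.80 for E2f7.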

How the data were processed

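The deposited values of the 15 arrays are signal intensities on a linear scale, 1 per probe set, made by the authors with MAS5 per the submitters' processing notes (version not given in the sources used here). Labelling took 2 amplification cycles per the labels' protocols, which can reduce signal far from the 3' end. No detection calls were used. Of the members' probe sets, 6 (Ccne1, Cdk4, Mcm5, Rrm2, Cdc20 and Aurkb) carry the x_at ending and 4 (Mcm2, Mcm3, Mcm7 and Bub1b) the s_at ending, which mark probes that may match more than one transcript, so their values are less certain.

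Before log2, 12.6 was added to all signals (the 25th percentile of the arrays, by its median). Of 45101 probe sets 64 controls were left out; 34945 carried 1 gene symbol, 932 several and 9160 none in the annotation used here. The filter asked for a signal over the 50th percentile of the array in at least 3 arrays; after taking for a gene the brightest of the probe sets that name it alone, 12391 genes were left. The fit, by limma 3.58.1 (lmFit and eBayes with an intensity trend, R 4.3.3), had 5 group means and used all 15 arrays, and p-values were adjusted by Benjamini-Hochberg over these genes in each of 9 comparisons, with calls at 0.05. The fit was tested on simulated data. Promoters were searched and figures drawn with Python 3.11.15 and matplotlib 3.10.9. Every member is named. Values on every array are given for D-type and E-type cyclins, Cdk6, Cdkn1b, Cdkn2c and E2f1, for the 4 replication and 4 mitosis genes with the widest range of group means, for members called against their class, and for genes a comparison turned on; of the 103 further genes the text draws on the largest differences past the threshold. Members, lists and alternatives were chosen with earlier results of these data known.

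The replicate numbers were checked for pairing by the correlation of same-numbered residuals, which lay between -0.27 and 0.61 over 30 pairs. All 3 were over 0.1 for 2 of 10 pairs of groups, RDL day 4 with RDL day 6 (0.22 to 0.28) and RDL day 4 with CDL day 6 (0.11 to 0.28). Of these 2 only the first is a comparison made here, and with a replicate block all its 19 calls were kept and 0 were added. Among the sorted groups the same-numbered array was the best match each time, except for number 3 of RDL day 6 with CDL day 6. That pair of groups held the highest values, 0.61 and 0.59 for numbers 1 and 2, and -0.24 for number 3. For the media at day 6 the block kept all 10 calls and added 4. The pairing comes from the data and not from the labels. The labels call the samples biological replicates and say no more on separate cultures.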

Additional observations from a re-analysis of the deposited data

Results flagged for a closer look

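For 3 members the difference between the media at day 6 differed from that at day 4 by the interaction test. Mki67 changed by -0.73 ± 0.14 (adjusted p = 0.00466), from -0.00 at day 4 to -0.74 at day 6, and the 3 day 6 CDL arrays were below all 3 RDL arrays. Cdc20 changed by -0.70 ± 0.17 (adjusted p = 0.0266), from 0.10 to -0.59. Ccnb2 changed by -0.54 ± 0.14 (adjusted p = 0.0391), from 0.02 to -0.52. The Cdc20 and Ccnb2 calls were each lost under most single left-out arrays, and the other probe sets of Cdc20 gave no call. The days also differ in cell line, strain and reporter, which cannot be told apart from time. Groups of 3 arrays are too small for the test of single outlying samples.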

How the results depend on the processing

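The counts of members called against ES cells kept within 1.5 times under all alternatives: another constant (1 or 50), quantile normalization, no filter on dim probe sets, the mean of all probe sets, no intensity trend, only the groups compared, the replicate block, and leaving out arrays. Leaving out 1 array gave 27 to 30 (29 with all arrays) for RDL day 4, 29 to 34 (34) for CDL day 4, 25 to 29 (27) for RDL day 6 and 32 to 37 (38) for CDL day 6. Day 6 against day 4 gave 14 to 21 (19) in RDL and 13 to 25 (20) in CDL. The media gave 0 to 1 (1) at day 4 and 8 to 15 (10) at day 6, and the interaction 1 to 9 (3). Without both CDL day 4 replicate 1 and RDL day 6 replicate 1, the media gave 2 at day 4 (Ccnd1 and Cdc45), 16 at day 6 and 9 for the interaction. With only the groups compared the media gave 2 at day 6 and the interaction 1. With the replicate block the interaction gave 6, and the block changed no other count by over 1.5 times. Fewer arrays leave fewer degrees of freedom; beyond that the cause was not tested.

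Of 181 called results of 46 members, 1629 values under settings other than leaving out 1 array held 1558 on the same side of the threshold, 70 no longer called and 1 reversed: Ccna2 in RDL day 6 against ES cells went from -0.25 to 0.02 with the mean of all probe sets, whose members disagree. Leaving out 1 array gave 968 of 1104 on the same side, 136 no longer called and 0 reversed. Of 205 tests on other probe sets of called members, over 29 genes, 131 gave the same call, 71 none and 3 the opposite one (Mcm5 in RDL day 4 and RDL day 6, Ccna2 in RDL day 6). Quantile normalization moved the median of all genes by at most 0.02.

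Dim probe sets limit what can be said of Tyms and of Ccnd2 in ES cells, whose signals lie near the array medians, and the size of their change depends on the constant: Ccnd2 in RDL day 4 lay between 4.29 and 6.05 over the alternatives.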

Other observations

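Between the media at day 4, the further mitosis gene Mad2l1, a checkpoint protein, was lower in CDL (-0.36 ± 0.08, adjusted p = 0.0167), the 1 of 33 in that list to be called there (3.03%, beside 1.52% of all genes). At day 6 the regulators Ccnf (-0.42 ± 0.12, adjusted p = 0.0407), a cyclin F-box protein, and Fbxo5 (-0.39 ± 0.11, adjusted p = 0.0349), an inhibitor of the anaphase-promoting complex, were lower in CDL. Cdkn1c changed its difference between the media from day 4 to day 6 (-0.75 ± 0.21, adjusted p = 0.0469), as did Cdkn2b (-0.50 ± 0.12, adjusted p = 0.0255). Rfc3, a subunit of the clamp loader, was the replication gene that rose most against ES cells, by 1.06 ± 0.12 in RDL day 6 and 0.92 ± 0.12 in CDL day 6, where 21 of the 34 further replication genes were lower in each (61.8%, beside 33.2% of all genes).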
